A study of Mus musculus with 36 samples.

Results

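Insulin signaling genes were followed across visceral white adipose tissue (visWAT, here the epididymal fat pad) and liver of mice with and without the necroptosis effector MLKL in adipocytes. The genes were the 10 rows of the deposited gene table whose symbol was Insr, Irs1, Irs2, Akt2, Pik3r1, Foxo1, Slc2a4, Trib3, Grb14 or Pde3b, out of 56748 genes. All 10 were found, each in 1 row. On GRCm39 (mm39), the build the authors aligned to, the minus-strand genes are Insr (chr8:3172061-3329617), Irs1 (chr1:82210822-82269137), Irs2 (chr8:11034681-11058458), Pik3r1 (chr13:101817071-101904725), Slc2a4 (chr11:69833365-69839014), Trib3 (chr2:152179342-152185952) and Grb14 (chr2:64742820-64855331). Akt2 (chr7:27290977-27340251), Foxo1 (chr3:52175757-52260642) and Pde3b (chr7:114014516-114138486) lie on the plus strand, and all 10 are protein-coding. The 36 RNA-seq libraries came from both tissues of the same 18 male C57BL/6J mice, which were 16 weeks old when a diet of 16 weeks began. In Mlkl Adi-KO mice (written KO below), loxP-flanked Mlkl was deleted by a Cre that is expressed in mature adipocytes, and the wild-type (WT) littermates carried the floxed allele without Cre. Both genotypes received a normal chow diet (NCD, 4 WT and 4 KO mice) or a high-fat diet (HFD, 5 WT and 5 KO mice). Whole tissue was sequenced, so cells other than adipocytes kept Mlkl in the KO visWAT, and the liver was a tissue in which the Cre is not meant to act.

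Insulin binds its receptor tyrosine kinase, which phosphorylates the docking proteins IRS1 and IRS2. These recruit phosphoinositide 3-kinase, whose lipid product brings AKT2 to the membrane. In adipocytes AKT2 sends the glucose transporter GLUT4 to the cell surface and, through phosphodiesterase 3B, curbs lipolysis, and in liver it keeps the transcription factor FOXO1 out of the nucleus and so restrains glucose output. TRIB3 and GRB14 are brakes, of which the first binds AKT and the second the active receptor.

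Each library held between 20875463 and 30322171 reads on genes. Values are FPKM, reads scaled to gene length and library size with a further scaling between libraries by the authors, and differences are on the log2(FPKM + 1) scale, which understates the change of low genes. A gene was called where limma gave a Benjamini-Hochberg adjusted p under 0.05 over all genes that averaged 0.5 FPKM or more in the mice compared. In visWAT, Mlkl was 1.96 to 2.72 FPKM in the KO mice and 3.91 to 6.28 in all WT mice but 1, the library labelled WT NCD mouse 182, which read 2.29. A second WT NCD library, mouse 183, held RNA of seminal vesicle, for which 8 of the 11 listed genes were found and summed to 264323 FPKM and took 19.0% of its reads. The main results that rest on these 2 libraries are given with and without them. Without both, mice 165 and 180 alone made up the WT NCD group. Hepatocyte genes summed to 58330 to 87911 FPKM in liver and mature adipocyte genes to 6080 to 23822 FPKM in visWAT, so both tissues carried their own markers.

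The docking proteins are the entry to the pathway, and their promoter windows are shown because Irs1 and Irs2 were the members whose windows held 1 of the 3 motifs searched. The windows run from 250 bases before to 50 bases after a RefSeq start and were taken from the GRCm38.p6 table and matched base for base to GRCm39, where each had 1 match. The motifs were the E-box CACGTG, bound by basic helix-loop-helix factors, the FOXO core TGTTTAC and the C/EBP-ATF composite TGATGCAA, each read on both strands. Capitals mark the E-box, and both windows lie on the minus strand, at chr1:82269111-82269410 for Irs1 and chr8:11058880-11059179 for Irs2.
Irs1: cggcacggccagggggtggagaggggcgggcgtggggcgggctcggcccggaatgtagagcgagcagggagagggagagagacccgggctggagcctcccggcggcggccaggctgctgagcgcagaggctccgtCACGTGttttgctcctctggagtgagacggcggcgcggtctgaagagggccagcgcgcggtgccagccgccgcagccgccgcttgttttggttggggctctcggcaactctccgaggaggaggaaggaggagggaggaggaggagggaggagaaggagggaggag
Irs2: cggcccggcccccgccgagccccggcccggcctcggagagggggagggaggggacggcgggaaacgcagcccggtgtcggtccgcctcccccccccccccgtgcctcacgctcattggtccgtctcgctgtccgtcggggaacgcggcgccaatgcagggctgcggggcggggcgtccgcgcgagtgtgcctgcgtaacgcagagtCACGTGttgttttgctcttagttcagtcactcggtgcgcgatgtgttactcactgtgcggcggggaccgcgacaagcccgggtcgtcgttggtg
The first base of the E-box was at position -115 from the RefSeq start in Irs1 and at -44 in Irs2, and that start was itself at -23 (Irs1) and -471 (Irs2) from the first base of the annotated gene. An E-box stood in 7.15% of the 32851 windows in the table, the FOXO core in 3.65% and the composite in 0.895%. In all, 11 windows of 7 members were read (Irs1, Irs2, Akt2, Pik3r1, Foxo1, Trib3 and Grb14), and none held the FOXO core or the composite. Insr, Slc2a4 and Pde3b had no window there.

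The members were spread over a wide range of levels, and their order differed between the tissues. In visWAT of WT mice on NCD, Slc2a4, which encodes GLUT4, had the highest mean (83.3 ± 52.7 FPKM, SD, n = 4), followed by Akt2 (47.5 ± 6.87), Pde3b (33.3 ± 9.63) and Pik3r1 (21.2 ± 6.11), the last of which encodes the regulatory subunit p85α. The ranges of these neighbours overlapped. Foxo1 (11.4 ± 2.53) and Insr (6.93 ± 1.47) stood apart from each other, while Irs2 (8.44 ± 4.37) spanned both, and Trib3, Grb14 and Irs1 were lowest, down to 1.26 ± 0.136 FPKM for Irs1. In liver of the same mice Akt2 led with 22.3 ± 0.873 FPKM, Insr (15.8 ± 1.35) and Pde3b (14.7 ± 1.88) followed, and Slc2a4 was last with 0.245 ± 0.194.

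Averaged over the 4 groups, 9 of the 10 members differed between visWAT and liver, 5 higher in visWAT and 4 higher in liver, where 88.8% of all genes tested were called. Slc2a4 was the most tissue-bound member, 4.48 higher in visWAT on the log2 scale (SE 0.149, limma adjusted p = 1.96e-23). Akt2 was higher there by 0.98, Pde3b by 0.56, Irs2 by 0.43 and Pik3r1 by 0.22. Liver held more of Grb14, with a difference of -1.78 (SE 0.0779, limma adjusted p = 3.61e-20), more Insr (-1.51), more Irs1 (-0.63) and more Trib3 (-0.38). Foxo1 differed by 0.01 (95% interval -0.11 to 0.14). Scaling every library to the same FPKM sum (the TPM scale) put the median of all genes at 0.72 and gave 11227 higher and 2747 lower genes in place of 6361 and 6649, and Trib3 (0.42) and Foxo1 (0.86) then read higher in visWAT.

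**Figure D1:**
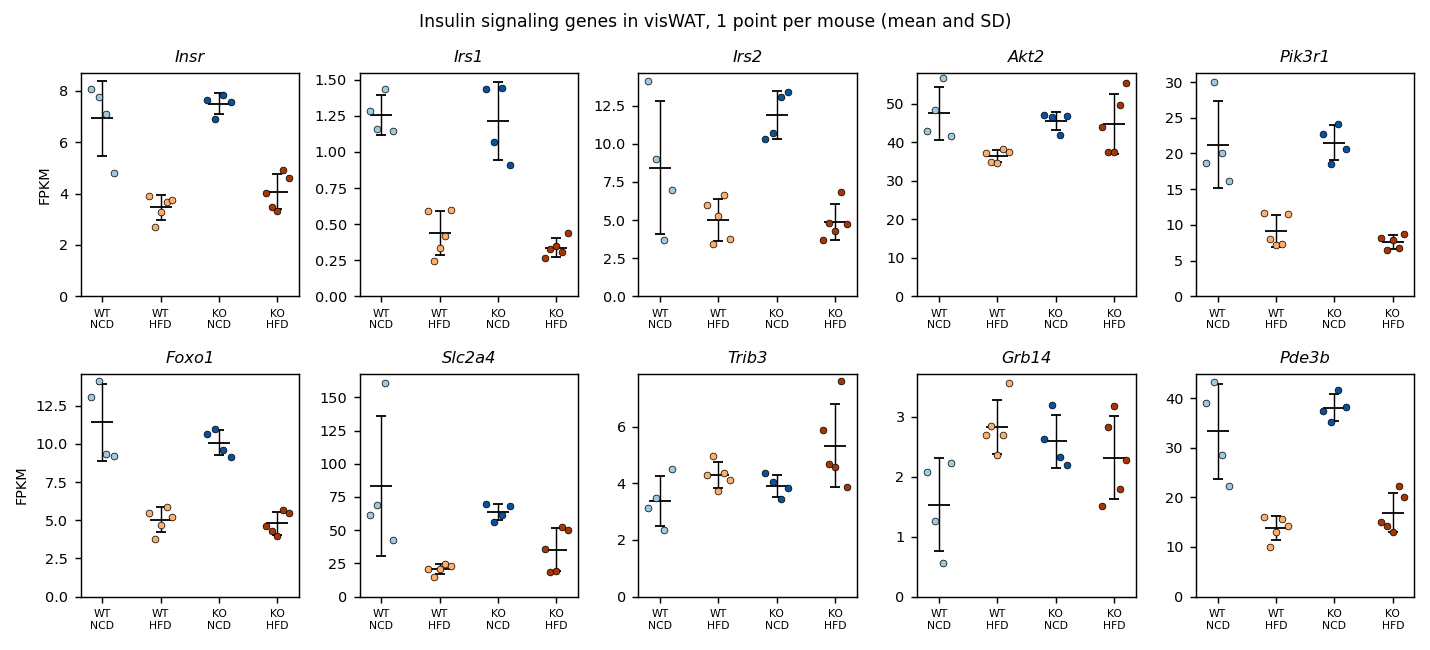
FPKM (vertical axes, from 0) of the 10 insulin signaling genes in visWAT of WT and KO mice on NCD (n = 4 each) and HFD (n = 5 each), with 1 point per mouse and bars for mean and SD. Insr, Irs1, Pik3r1, Foxo1, Slc2a4 and Pde3b sit lower on HFD than on NCD in both genotypes without overlap, and the WT NCD point of Slc2a4 near 161 is mouse 182.

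In visWAT, most members were lower on HFD than on NCD. In WT mice 7 members fell and 1, Grb14, rose, where 15.8% of all genes tested fell and 21.9% rose. In KO mice 7 members fell and none rose, against 20.3% and 23.3% of all genes. Insr, Irs1, Pik3r1, Foxo1, Slc2a4 and Pde3b fell in both genotypes, Akt2 in WT mice and Irs2 in KO mice. The HFD means of Irs1, 0.437 FPKM in WT and 0.337 in KO mice, were below the 0.5 FPKM filter. Its NCD level alone brought it into these counts and the medians below. The median member changed by -0.74 in WT and -0.85 in KO mice, and the median of all genes by -0.0061 and 0.0094. The called members' groups did not overlap, in which case the two-sided exact permutation test of 4 against 5 mice gives its smallest p of 0.0159. The share of all genes whose groups did not overlap was not computed.

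Insr, the receptor itself, read 8.06, 7.75, 7.104 and 4.802 FPKM in WT mice on NCD and 3.89, 2.71, 3.27, 3.67 and 3.77 on HFD. All 5 HFD mice lay below all 4 NCD mice, and Insr fell by 0.81 on the log2 scale (SE 0.1399, limma adjusted p = 0.00156). KO mice gave 7.63, 6.92, 7.85 and 7.58 on NCD and 4.04, 3.49, 3.31, 4.92 and 4.62 on HFD, again without overlap, a difference of -0.75 (SE 0.0985, limma adjusted p = 0.000655). Irs1, the docking protein tied to the metabolic action of insulin in fat, was at 1.29, 1.16, 1.44 and 1.14 FPKM in WT mice on NCD and at 0.588, 0.246, 0.336, 0.417 and 0.597 on HFD. In KO mice it was at 1.43, 1.07, 1.45 and 0.9096 on NCD and 0.263, 0.326, 0.351, 0.308 and 0.436 on HFD. The groups stood apart in both genotypes, with differences of -0.66 (SE 0.0948, limma adjusted p = 0.000558) and -0.72 (SE 0.0914, limma adjusted p = 0.000573). The HFD means of Irs1 were below 0.5 FPKM, so the gene was tested only through its NCD level.

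Irs2, the second docking protein, spread widely among the WT NCD mice, with 14.1, 9.03, 3.67 and 6.95 FPKM, of which the lowest is mouse 182. The WT mice on HFD read 5.97, 3.43, 5.26, 6.63 and 3.74, overlapping that range, and the difference of -0.56 missed the threshold (SE 0.312, limma adjusted p = 0.187). Without mouse 182 it was -0.86 (limma adjusted p = 0.0228), and without mice 182 and 183 it was -1.07 (limma adjusted p = 0.00827). The latter value rests on mice 165 and 180 alone as the WT NCD group. The KO mice, whose NCD values were 10.3, 10.7, 13.1 and 13.4 and whose HFD values were 3.71, 4.79, 4.31, 6.85 and 4.75, did not overlap, and Irs2 fell by 1.14 (SE 0.143, limma adjusted p = 0.000545).

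Pik3r1, the p85α gene, fell in both genotypes. In KO mice it read 22.7, 18.5, 24.1 and 20.6 FPKM on NCD and 8.105, 6.43, 7.86, 6.76 and 8.78 on HFD, a difference of -1.39 (SE 0.103, limma adjusted p = 0.000121). In WT mice the values were 18.6, 30.1, 20.1 and 16.1 on NCD and 11.7, 7.97, 7.22, 7.35 and 11.5 on HFD, a difference of -1.12 (SE 0.203, limma adjusted p = 0.00212), and mouse 180 held the highest value of all. Akt2, the AKT isoform that carries the insulin signal in fat and liver, moved little. Its WT values were 43.01, 48.5, 56.9 and 41.8 FPKM on NCD and 37.2, 35.02, 34.6, 38.2 and 37.6 on HFD, a difference of -0.36 without overlap (SE 0.0994, limma adjusted p = 0.0184), which lost the threshold without mouse 180 (limma adjusted p = 0.0507). KO mice on HFD read 43.9, 37.6, 37.5, 49.6 and 55.3, on both sides of the NCD values of 47.1, 46.5, 41.9 and 46.8, and the difference was -0.04 (95% interval -0.31 to 0.23).

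Among the outputs of the pathway, Slc2a4 had the largest fall of the members in WT mice on the log2(FPKM + 1) scale. It read 61.1, 68.97, 161 and 42.8 FPKM on NCD and 20.9, 14.4, 20.9, 24.6 and 22.8 on HFD. The value of 161 is mouse 182, but the other NCD mice also lay above all 5 HFD mice, and Slc2a4 fell by 1.80 (SE 0.333, limma adjusted p = 0.00244), with -1.42 without mouse 182 (limma adjusted p = 0.000659). KO mice gave 69.3, 56.1, 61.4 and 68.004 on NCD and 35.9, 18.5, 19.4, 52.1 and 49.9 on HFD. These HFD mice fell into 2 near 19 and 3 from 35.9 up, still all below the NCD mice. The difference of -0.96 (SE 0.316, limma adjusted p = 0.0343) lost the threshold when 1 of 7 of the 9 mice (151, 152, 153, 166, 179, 197 or 199) was left out, with limma adjusted p up to 0.0804 and differences between -1.13 and -0.77.

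Pde3b, which breaks down the cAMP that drives lipolysis, read 39.04, 43.3, 28.5 and 22.2 FPKM in WT mice on NCD and 15.9, 10.01, 13.03, 15.6 and 14.3 on HFD, and fell by 1.18 (SE 0.203, limma adjusted p = 0.00154). In KO mice, with 37.4, 35.1, 41.7 and 38.1 on NCD and 15.1, 14.2, 13.004, 22.3 and 20.05 on HFD, it fell by 1.15 (SE 0.151, limma adjusted p = 0.000659). Neither pair of groups overlapped. Foxo1 was at 13.04, 14.1, 9.305 and 9.204 FPKM in WT mice on NCD and at 5.501, 3.798, 4.71, 5.88 and 5.24 on HFD, a difference of -1.03 (SE 0.151, limma adjusted p = 0.000597). The KO mice were close to this, with 10.6, 10.95, 9.59 and 9.17 on NCD, 4.62, 4.305, 3.93, 5.69 and 5.48 on HFD and a difference of -0.94 (SE 0.1002, limma adjusted p = 0.000325). For this gene too every HFD mouse was below every NCD mouse of its genotype.

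The brakes did not fall with the rest in WT mice. Grb14 read 2.09, 1.27, 0.5601 and 2.24 FPKM on NCD and 2.69, 2.85, 2.36, 2.702 and 3.58 on HFD. All HFD mice were above all NCD mice, by a narrow margin, and the rise of 0.65 (SE 0.203, limma adjusted p = 0.0322) lost the threshold when 1 of 5 mice (154, 155, 162, 164 or 180) was left out, with limma adjusted p up to 0.0802, and by edgeR (adjusted p = 0.0767). In all, the call was lost in 7 of 20 alternatives. Without mouse 182, the lowest NCD value, the rise was 0.43, and without mouse 183 it was 0.78. KO mice overlapped, with 2.63, 3.21, 2.33 and 2.195 on NCD and 1.52, 2.83, 3.18, 1.802 and 2.28 on HFD (difference -0.13, 95% interval -0.48 to 0.22). Trib3 ranged over 2.36 to 4.501 FPKM in WT mice on NCD and 3.74 to 4.98 on HFD, with a difference of 0.30 (SE 0.131, limma adjusted p = 0.105). In KO mice it ranged over 3.44 to 4.36 and 3.88 to 7.61, with a difference of 0.34 (SE 0.152, limma adjusted p = 0.1003). Trib3 gained the threshold in 6 of 20 alternatives in WT and 3 of 18 in KO mice. Among these, 1 in each genotype left out 1 mouse (limma adjusted p = 0.0133 and 0.0403).

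**Figure D2:**
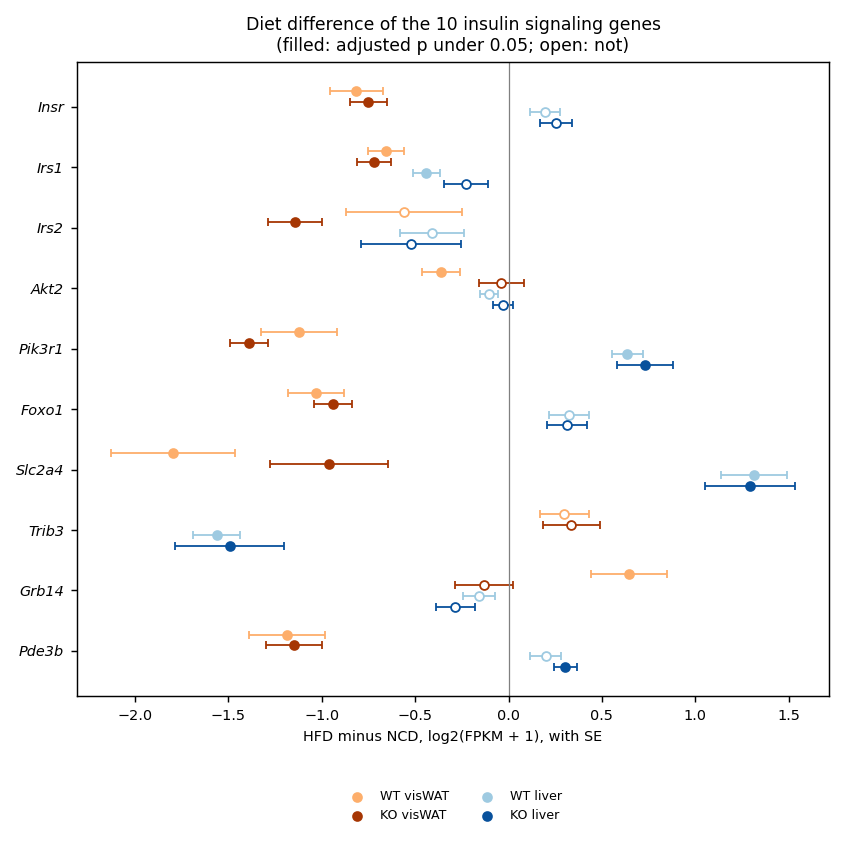
Difference between HFD and NCD of the 10 genes on the log2(FPKM + 1) scale (horizontal axis) in WT and KO mice and both tissues, with SE as bars, filled points for an adjusted p under 0.05 and open points for the others. Insr, Pik3r1, Foxo1, Slc2a4 and Pde3b lie left of 0 in visWAT and right of it in liver, and Trib3 lies the other way round.

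Markers of cell types moved with these falls. Of 16 mature adipocyte genes, 10 fell and 1 rose with HFD in WT visWAT, and 8 fell and 2 rose in KO visWAT. Lep, the leptin gene, rose in both genotypes and Cidec, a lipid droplet gene, in KO mice. The sum of the list was 12633 to 23822 FPKM in WT mice on NCD and 6080 to 7582 on HFD, and 18569 to 22860 and 6748 to 14235 in KO mice. Much of this was 1 gene, Cfd, the complement factor adipsin, whose mean went from 9491 to 389 FPKM in WT and from 11603 to 1844 FPKM in KO mice. Without Cfd the list summed to 6164 to 9737 FPKM on NCD and 5876 to 6992 on HFD in WT mice. In KO mice it summed to 7905 to 9904 and 6439 to 11436 FPKM, with means of 8944 on NCD and 8995 on HFD. Of 12 macrophage genes, 10 rose in WT mice, from a sum of 201 to 300 FPKM to one of 1773 to 2563, and 8 rose and 1 fell in KO mice, from 257 to 441 to 667 to 2325. No gene of either list was at 0 throughout. In such bulk samples fewer adipocytes and less RNA per adipocyte cannot be told apart, and the part of this shift in the members' falls was not tested.

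Set against the mean of the adipocyte list, most of the falls in visWAT were no longer called. In WT mice Slc2a4 alone stayed lower (-0.83, limma adjusted p = 0.0106), while Akt2 (0.60), Trib3 (1.26) and Grb14 (1.61) were higher than the list, and the differences of Insr (0.15), Irs1 (0.31), Irs2 (0.40), Pik3r1 (-0.16), Foxo1 (-0.068) and Pde3b (-0.22) were not called. In KO mice Pik3r1 (-0.83, limma adjusted p = 0.0184) and Pde3b (-0.59, limma adjusted p = 0.0421) stayed lower and Trib3 was higher (0.89, limma adjusted p = 0.0197), while Slc2a4 was at -0.41 (limma adjusted p = 0.119). This centring put the median of all genes at 0.96 in WT and 0.57 in KO mice, with 12543 genes higher and 93 lower in WT mice and 4618 and 105 in KO mice, where the deposited scale gave 3272 and 2853. With Cfd taken out of the list, a choice made after seeing the data, Slc2a4 (-1.07, limma adjusted p = 0.00277) and Pde3b (-0.46, limma adjusted p = 0.0206) stayed lower in WT mice, and Trib3 (1.02) and Grb14 (1.37) were higher. In KO mice 5 members then stayed lower, Irs2 (-0.77), Pik3r1 (-1.02), Foxo1 (-0.56), Slc2a4 (-0.59, limma adjusted p = 0.0315) and Pde3b (-0.77), and Trib3 was higher (0.71). The median of all genes was then at 0.72 in WT and 0.38 in KO mice, with 10901 genes higher and 161 lower in WT and 2924 and 187 in KO mice. The KO mice on HFD with the lowest adipocyte sums without Cfd, 6853 in mouse 152 and 6439 in mouse 153, were also those with the lowest Slc2a4, and their macrophage sums of 2180 and 2325 FPKM were the highest of the 5.

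**Figure D3:**
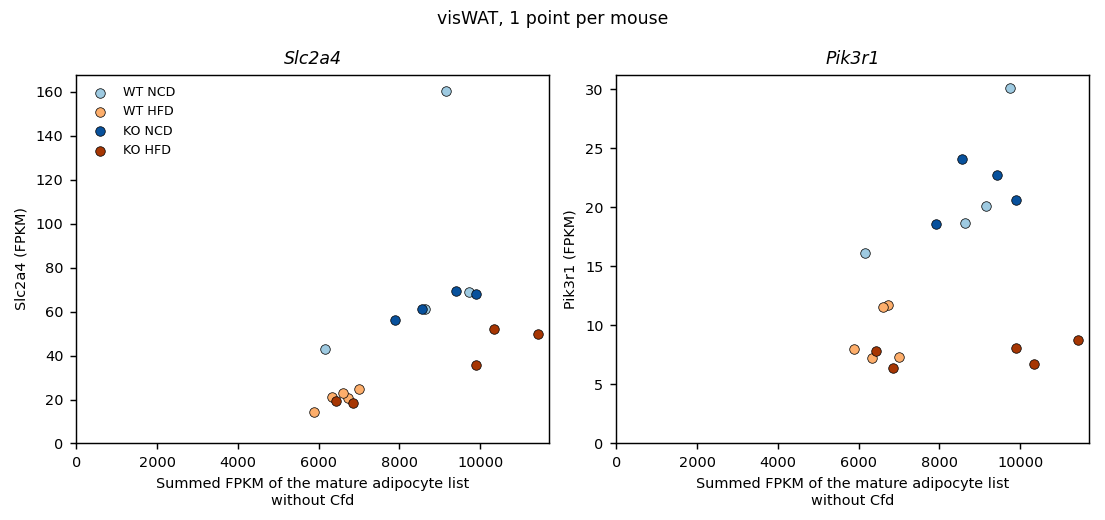
FPKM of Slc2a4 (left) and Pik3r1 (right) in visWAT against the summed FPKM of the mature adipocyte genes other than Cfd, with 1 point per mouse colored by genotype and diet. In Slc2a4 level the 3 KO HFD mice at 35.9, 49.9 and 52.1 lie between the other HFD mice and most NCD mice. On the horizontal axis these 3 mice, at 9907 to 11436 FPKM, lie right of all NCD mice, which reach 9904. Mouse 182 at 161 lies away from the rest, while Pik3r1 is at 6.43 to 8.78 in all 5 KO HFD mice.

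On the TPM scale the WT diet comparison in visWAT changed. The median of all genes lay at 0.35, 4113 genes were higher and 233 lower in place of 3108 and 2239, and 4 members were called, with Irs1 and Slc2a4 lower and Trib3 and Grb14 higher. With mice 182 and 183 also left out, a choice made after seeing the data, the median of all genes lay at 0.10, all members but Akt2 were called and Insr (-0.96), Pik3r1 (-1.22), Foxo1 (-1.22) and Pde3b (-1.43) were lower again. On the deposited scale without these mice all 10 members were called, where 7295 of 14015 genes (52.1%) were. In both fits mice 165 and 180 alone made up the WT NCD group. The edgeR test gave 2693 higher and 3169 lower genes and called the 7 members that fell.

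**Figure D4:**
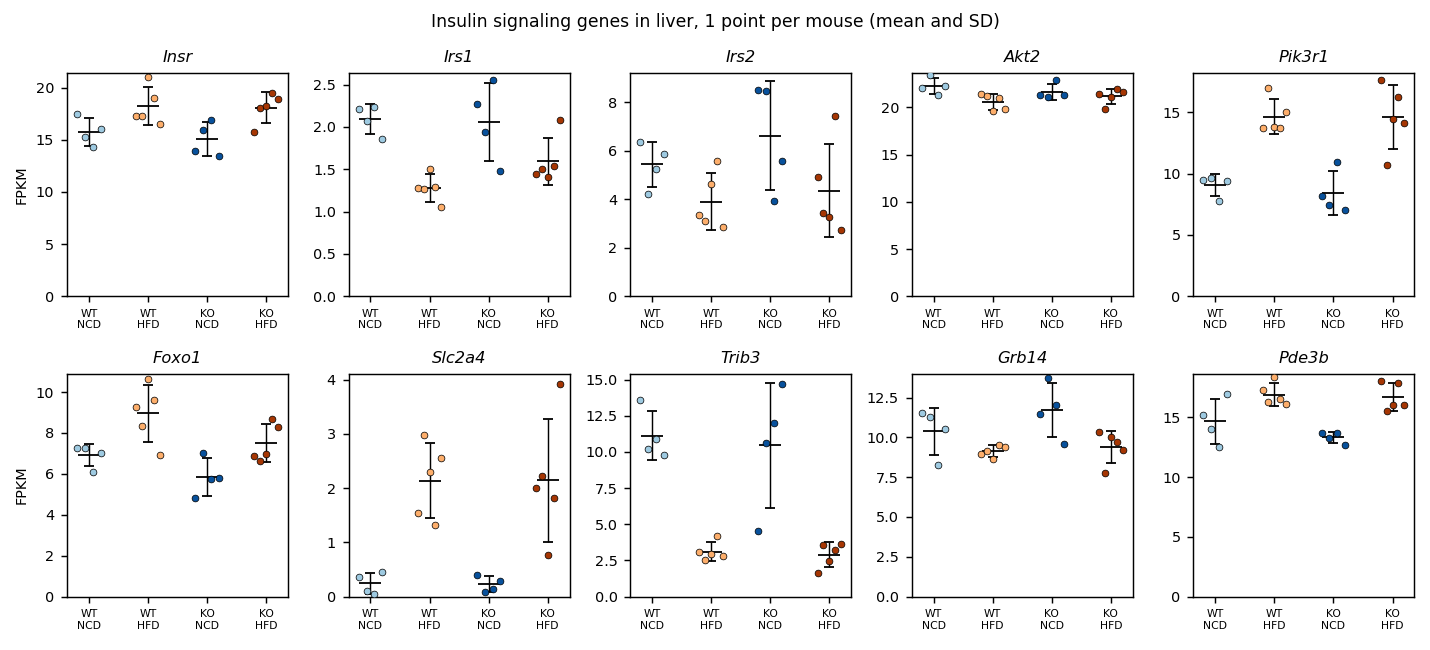
FPKM (vertical axes, from 0) of the 10 genes in liver of the same mice, with 1 point per mouse and bars for mean and SD. Slc2a4 sits higher and Trib3 lower on HFD in both genotypes without overlap, and Akt2 stays between 19.6 and 23.4 in all 18 mice.

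The liver of the same mice answered HFD differently. In WT liver Pik3r1 and Slc2a4 rose and Irs1 and Trib3 fell, where 13.2% of all genes tested rose and 12.1% fell. In KO liver Pik3r1, Slc2a4 and Pde3b rose and Trib3 fell, against 11.9% and 10.3% of all genes. The NCD means of Slc2a4, 0.245 FPKM in WT and 0.225 in KO liver, were below the 0.5 FPKM filter. Its HFD level alone brought it into these calls and the medians below. The median member changed by 0.044 in WT and 0.11 in KO mice.

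Trib3 was the member that fell in the livers of both genotypes. It read 13.6, 10.2, 10.9 and 9.79 FPKM in WT mice on NCD and 3.05, 2.51, 2.96, 4.22 and 2.83 on HFD, a difference of -1.56 (SE 0.125, limma adjusted p = 6.75e-05). In KO mice the values were 4.52, 10.6, 12.01 and 14.7 on NCD and 1.61, 3.53, 2.42, 3.19 and 3.65 on HFD, a difference of -1.49 (SE 0.291, limma adjusted p = 0.00613). The groups did not overlap in either genotype, and the KO mouse at the lowest NCD value was nearest to the HFD mice. Trib3 is a target of the stress-response factors ATF4 and CHOP. Of 12 other listed genes of that kind, 9 were tested in WT liver, where 1 rose and 3 fell, and 10 in KO liver, where 2 fell.

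Slc2a4 rose in liver from a low level. It was at 0.365, 0.107, 0.0555 and 0.454 FPKM in WT mice on NCD (4 to 28 reads) and at 1.54, 2.98, 2.29, 1.32 and 2.56 on HFD (73 to 194 reads). In KO mice it was at 0.396, 0.0826, 0.131 and 0.2903 on NCD (5 to 25 reads) and at 2.005, 2.22, 0.767, 1.82 and 3.92 on HFD (43 to 223 reads). Every HFD mouse was above every NCD mouse, with rises of 1.32 (SE 0.177, limma adjusted p = 0.000841) and 1.29 (SE 0.243, limma adjusted p = 0.00514), and the HFD means in FPKM were 8.71 and 9.53 times the NCD means. The NCD means were under 0.5 FPKM, so the gene was tested only through its HFD level. Adipoq, a defining adipocyte gene, had 0 to 1 reads in the livers of 4 of the 5 WT and all 5 KO mice on HFD and 70 reads in WT mouse 155, whose Plin1 also had 103 reads, against 0 to 2 in the other HFD livers. The liver Slc2a4 of mouse 155 was 2.98 FPKM, and the call held when this mouse was left out. Of the 11 adipocyte genes of the list tested in liver, 8 rose in WT and 4 in KO mice, and the list summed to 363 to 573 FPKM in WT mice on NCD and 774 to 941 on HFD. Most of that sum was Cebpa (means 229 and 319 FPKM in WT mice on NCD and HFD) and Dgat2 (197 and 318 FPKM), which liver expresses. Other listed genes had higher means on HFD in WT liver, among them Cidec (12.98 and 78.1 FPKM) and Cidea (3.797 and 26.5 FPKM). Plin4 (3.42 and 26.97 FPKM) and Cfd (2.11 and 26.04 FPKM) did too, while Adrb3 had a lower mean (3.44 and 1.98 FPKM). Adipoq, Plin1 and Lep averaged at most 0.549 FPKM in any group of livers. The part of adipocyte RNA in the rise of Slc2a4 was not tested.

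Pik3r1 rose in liver where it had fallen in fat. It read 9.48, 9.62, 7.74 and 9.42 FPKM in WT mice on NCD and 13.7, 16.98, 13.8, 13.7 and 14.99 on HFD, a rise of 0.63 without overlap (SE 0.0831, limma adjusted p = 0.000737). In KO mice the values were 8.19, 7.46, 10.9 and 7.05 on NCD and 17.6, 10.7, 14.4, 16.2 and 14.1 on HFD. The HFD mouse at 10.7 overlapped the NCD mouse at 10.9, and the rise was 0.73 (SE 0.151, limma adjusted p = 0.00798). Irs1 fell in WT liver, from 2.21, 2.07, 2.24 and 1.86 FPKM on NCD to 1.28, 1.27, 1.51, 1.29 and 1.05 on HFD, by 0.44 (SE 0.0733, limma adjusted p = 0.002604). In KO liver it was 2.27, 1.94, 2.56 and 1.47 on NCD and 1.44, 1.498, 1.41, 1.54 and 2.09 on HFD, with overlap and a difference of -0.23 (SE 0.118, limma adjusted p = 0.196).

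Pde3b rose in KO liver by 0.30 (SE 0.0619, limma adjusted p = 0.00761), from 13.7, 13.2, 13.7 and 12.7 to 18.02, 15.6, 16.1, 17.9 and 16.1 FPKM, without overlap. In WT liver it ranged over 12.5 to 16.96 on NCD and 16.1 to 18.4 on HFD, with a difference of 0.20 (SE 0.0817, limma adjusted p = 0.108). Foxo1, which drives gluconeogenic genes when insulin is low, differed by 0.32 in WT (SE 0.106, limma adjusted p = 0.0513) and 0.31 in KO liver (SE 0.108, limma adjusted p = 0.0632). Both missed the threshold, and both passed it with edgeR, DESeq2, the TPM scale and a fit of 4 groups. Insr differed by 0.19 and 0.25, Irs2 by -0.41 and -0.52, Grb14 by -0.16 and -0.29 and Akt2 by -0.11 and -0.03 in WT and KO liver, none of them called. By edgeR, DESeq2 or a fit of 4 groups, 7 members were called in KO liver in place of 4, with Insr higher and Grb14 lower added to Foxo1, where 3117, 3520 and 3634 genes were called in place of 2919.

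The difference between the diet responses of the tissues was tested in WT mice, as the diet difference in visWAT minus that in liver. It was called for 7 members, where 40.0% of all genes were. It was negative for Slc2a4 (-3.11, SE 0.395, limma adjusted p = 1.09e-05), Pik3r1 (-1.76), Pde3b (-1.38), Foxo1 (-1.35) and Insr (-1.01). It was positive for Trib3 (1.86, SE 0.189, limma adjusted p = 1.00e-06) and Grb14 (0.81, SE 0.232, limma adjusted p = 0.01098). For Irs1 (-0.21, 95% interval -0.46 to 0.03), Irs2 (-0.15, -0.94 to 0.64) and Akt2 (-0.25, -0.48 to -0.03) it was not called. On the TPM scale the median of all genes lay at 0.34, 4387 genes were positive and 624 negative in place of 3214 and 2687, and Insr and Pde3b lost the threshold.

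Loss of Mlkl in adipocytes was not accompanied by a called change of any member. In visWAT on HFD 9 members were tested and 0 called, where 0.0215% of all genes (3 genes) were, and in visWAT on NCD 0 of 10 were called, where 0% were. In liver 0 of 10 were called on HFD and 0 of 9 on NCD, where 0.197% and 0.00758% of all genes were. At an unadjusted limma p under 0.05 the members numbered 1, 1, 1 and 0 in these comparisons, where 21.5%, 3.75%, 12.6% and 4.35% of all genes were, and edgeR and DESeq2 also called 0 members. Irs1 in visWAT on HFD and Slc2a4 in liver on NCD were under the filter on level.

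**Figure D5:**
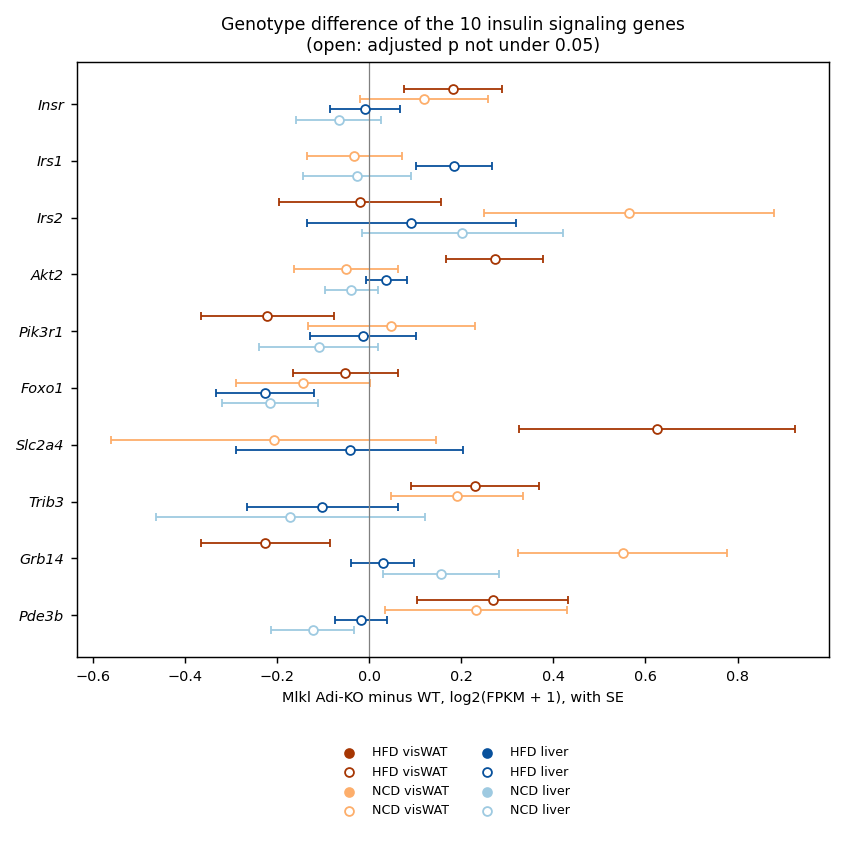
Difference between KO and WT mice of the 10 genes on the log2(FPKM + 1) scale (horizontal axis) for each tissue and diet, with SE as bars, all points open since none had an adjusted p under 0.05. The largest difference is that of Slc2a4 in visWAT on HFD, at 0.63.

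Slc2a4 in visWAT on HFD had the largest difference, 0.63 (SE 0.299, limma adjusted p = 0.242). Of the 5 KO mice, 3 lay above all WT mice and 2 within the WT range of 14.4 to 24.6 FPKM. The adipocyte sums of these 3 mice, 9907 to 11436 FPKM without Cfd, were above the WT range of 5876 to 6992 FPKM as well, and the part of this in the difference was not tested. Akt2 differed by 0.27 (SE 0.106, limma adjusted p = 0.221), with the same 3 mice above the WT mice, and Pde3b by 0.27 (95% interval -0.10 to 0.63). Insr differed by 0.18 (-0.05 to 0.42), Irs2 by -0.02 (-0.41 to 0.37), Pik3r1 by -0.22 (-0.54 to 0.10) and Foxo1 by -0.05 (-0.30 to 0.20).

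On NCD, Irs2 in visWAT differed by 0.56 (SE 0.315, limma adjusted p = 0.916) and Grb14 by 0.55 (SE 0.227, limma adjusted p = 0.916), both with their lowest WT value in mouse 182. Without that mouse the differences were 0.27 and 0.34 (both at a limma adjusted p of 0.885), and without mice 182 and 183 they were 0.057 and 0.43. In liver on HFD the largest differences were those of Foxo1, -0.23 (SE 0.107, limma adjusted p = 0.423), and Irs1, 0.18 (SE 0.08301, limma adjusted p = 0.396). In liver on NCD all 9 members tested had a limma adjusted p of 0.996, with differences from -0.22 for Foxo1 to 0.20 for Irs2.

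The dependence of the diet response on genotype was called for 0 of 10 members in visWAT, where 0% of all genes were called, and for 0 of 10 in liver, where 0.0151% (2 genes) were. At an unadjusted limma p under 0.05 there was 1 member in visWAT and 0 in liver, where 13.2% and 6.12% of all genes were, and edgeR and DESeq2 called 0 members. The 1 was Grb14, whose diet difference in KO minus that in WT visWAT was -0.78 (SE 0.269, limma adjusted p = 0.326), or -0.56 without mouse 182 and -0.66 without mice 182 and 183. For Slc2a4 in visWAT the difference between genotypes was 0.83 (95% interval -0.20 to 1.86), which holds both an equal fall and a smaller fall in KO mice, and it was 0.46 without mouse 182 and 0.66 without mice 182 and 183.

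The wider pathway was read from 4 lists with 65 genes other than the members. With HFD in WT visWAT, 60 were tested, of which 16 rose and 11 fell, and in KO visWAT 9 rose and 16 fell of 58. In WT liver 9 rose and 6 fell of 55, and in KO liver 8 rose and 2 fell of 55. Of all genes tested, 21.9% rose and 15.8% fell in WT visWAT, 23.3% and 20.3% in KO visWAT, 13.2% and 12.1% in WT liver and 11.9% and 10.3% in KO liver. The medians of the 4 lists together were -0.031, -0.019, -0.0010 and -0.0055. At most 2 genes were named for each list and direction in each genotype, so a gene named below in 1 genotype may have changed in the other too, and for genotype by diet limma called 0 genes of the 4 lists in visWAT or liver (9 of 59 and 3 of 56 at an unadjusted p under 0.05).

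Among the receptor's adaptors, Dok1 and Grb2 rose in visWAT, by 1.51 and 0.90 in WT and by 1.14 and 0.67 in KO mice. Sh2b2, which encodes the adaptor APS, fell (-1.54 in WT and -1.17 in KO mice), as did Irs3 in WT visWAT (-0.54). Of the 13 adaptors tested, 4 rose and 3 fell in WT and 2 rose and 4 fell in KO visWAT. In liver Gab1 rose by 0.68 in WT and 0.60 in KO mice, and Shc1 fell in WT mice (-0.30). The list counted 3 risen and 1 fallen of 10 in WT and 2 risen of 11 in KO liver.

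In the PI3K and AKT arm, Pik3cd, the catalytic subunit typical of leukocytes, rose by 1.54 in WT and 0.97 in KO visWAT. Akt1 rose by 0.29 in KO visWAT. Prkci fell (-0.56 in WT and -0.68 in KO mice), and so did Pdpk1, the kinase that activates AKT (-0.34 and -0.47). The arm counted 4 risen and 3 fallen of 15 in WT and 3 risen and 6 fallen of 14 in KO visWAT. In liver 2 of 14 rose in each genotype, Pik3cb by 0.75 and 0.61 and Prkcz by 0.70 and 0.65.

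Among AKT substrates and outputs, Gys1, the glycogen synthase of peripheral tissues, fell in visWAT (-1.08 in WT and -0.87 in KO mice). Rps6kb1 fell in WT visWAT (-0.42) and Tbc1d4, whose protein holds GLUT4 vesicles back, in KO visWAT (-0.38). Tbc1d1 and Foxo3 rose by 0.53 and 0.47 in WT and Rheb by 0.23 in KO visWAT. The list counted 2 risen and 4 fallen of 15 in WT and 1 and 3 of 15 in KO visWAT. In liver Gys2, the hepatic glycogen synthase, rose by 0.90 in WT and 0.72 in KO mice and Slc2a2, the hepatic glucose transporter, by 0.50 and 0.44, while Slc2a1 fell in WT mice (-0.50), for 2 risen and 1 fallen of 15 in WT and 3 risen of 15 in KO mice.

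Of the other brakes, 6 of 17 rose and 1 fell in WT visWAT, and 3 of 16 rose and 3 fell in KO visWAT. Inpp5d, a lipid phosphatase best known in blood cells, rose by 1.62 and 0.88 and Prkcd by 1.52 and 0.98, beside the macrophage genes given above. Grb10, an adaptor related to GRB14, fell in KO mice (-0.32). In liver Trib1 rose by 0.67 and 0.82 and Enpp1 by 0.22 in WT mice. Grb7 (-0.65) and Socs3 (-0.50) fell in WT liver, and Prkcd (-0.43) and Ppp2r5c (-0.20) in KO liver. The counts were 2 risen and 4 fallen of 16 in WT and 1 and 2 of 15 in KO liver.

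Genes that insulin controls in liver were read in the same way. Of 7 genes that insulin raises, 5 were tested in visWAT and all 5 fell in both genotypes. Of all genes tested there, 15.8% fell in WT and 20.3% in KO mice. Those that fell included Acaca (-3.09 in WT and -2.57 in KO mice), Acly in WT (-2.26) and Fasn in KO mice (-2.002), all enzymes of fatty acid synthesis. The list summed to 732 to 4984 FPKM in WT visWAT on NCD (median 1130) and 288 to 406 on HFD. In KO visWAT it summed to 899 to 1501 and 236 to 490 FPKM. The WT falls are not given without the highest NCD library. In liver these genes went both ways, with 3 risen and 3 fallen of 7 in WT and 2 risen and 1 fallen of 7 in KO mice. Of all genes tested in liver, 13.2% rose and 12.1% fell in WT and 11.9% and 10.3% in KO mice. Pklr rose by 2.01 and 1.45 and Srebf1 by 0.97 and 1.39, while Pnpla3 fell (-2.02 in WT and -1.63 in KO mice) and Acly fell in WT mice (-1.004). Of the genes that insulin lowers, 5 of the 6 tested fell in liver in both genotypes, with medians of -1.26 and -1.26. Igfbp1 fell (-1.66 in WT and -3.12 in KO mice), Igfbp2 in WT (-1.58) and Pck1, a gluconeogenic enzyme, in KO mice (-1.31). In visWAT, Pck1, which there serves glycerol synthesis, fell (-2.01 in WT and -1.52 in KO mice), and Pdk4 rose by 0.87 in KO mice, with 1 fallen of 3 in WT and 1 risen and 1 fallen of 4 in KO mice.

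Between genotypes, 1 gene of all these lists was called, in liver on HFD. There 56 genes of the 4 lists, 7 that insulin raises and 6 that it lowers were tested. Of all genes tested there, 0.197% (26 genes) were called. Igfbp1, a liver-secreted binding protein of insulin-like growth factors that insulin represses, read 50.4, 31.0, 30.3, 36.5 and 33.9 FPKM in WT and 12.9, 14.6, 15.1, 14.9 and 6.01 FPKM in KO liver on HFD. All 5 KO mice lay below all 5 WT mice, and the difference was -1.49 (SE 0.232, limma adjusted p = 0.0401). The call held in 7 of 17 alternatives (adjusted p 7.12e-09 to 0.113), among them 2 of the 10 that left out 1 mouse (152 or 157). On NCD the livers overlapped, at 84.01 to 194 FPKM in WT and 43.5 to 201 FPKM in KO mice, and the dependence of its diet response on genotype was not called (-1.45, limma adjusted p = 0.585). On HFD in visWAT, Foxo3 (-0.43) and Tbc1d1 (-0.35), both at a limma adjusted p of 0.221, had the lowest unadjusted p of the lists and were not called. On NCD these were Pik3r3 (0.18) and Socs3 (0.22) in visWAT and Socs3 (0.33) and Slc2a1 (-0.41) in liver, with limma adjusted p of 0.836 or more.

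Some genes followed a member from mouse to mouse within groups, over the 18 libraries of a tissue, in which depth and tissue composition are shared. For Slc2a4 in visWAT these were Hibch (Pearson r = 0.985), Bckdhb (0.979) and Clybl (0.968), the first pair of which encode enzymes of branched-chain amino acid breakdown, and without mouse 182 the values were 0.985, 0.966 and 0.947. For Trib3 in liver they were Idua (0.837), Kctd21 (0.775) and Gm52956 (0.774), and for Irs2 in liver Hmgn2-ps1 (0.838), Gm15746 (0.834) and 1700018L02Rik (0.826). These are descriptions across 12066 genes in visWAT and 11355 in liver.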

How the data were processed

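PolyA RNA of visWAT and liver was sequenced by the authors, who trimmed reads with fastp, aligned them with HISAT2 to mm39 and counted reads per gene with featureCounts 1.5.0-p3. The annotation release and strand setting are not given in the sources used here. The authors deposited FPKM per gene, read counts and gene lengths, and also log2 fold changes, p-values and pathway tables of their own comparisons, which were not used, and 72 further per-sample columns, which were not used either. For 100% of the values the deposited FPKM gave whole reads (tolerance 0.01 reads), which served the count tests. Divided by the reads on genes, the authors' library size was 1.01 to 1.40 for visWAT and 0.737 to 0.812 for liver, so FPKM levels across tissues depend on that scaling. Depth was 20875463 to 30322171 reads on genes, and the SDs between mice include counting error.

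Groups came from the labels, and replicates were separate mice. limma 3.58.1 in R 4.3.3 was fitted to log2(FPKM + 1) with a mean-variance trend, on genes that averaged 0.5 FPKM or more in the libraries compared, with Benjamini-Hochberg adjustment over all of them and a threshold of 0.05, two-sided. Each diet or genotype comparison was fitted on its own groups, and the diet by genotype and diet by tissue terms on 4 groups. Single members were also tested by exact permutation of the mice (SciPy 1.17.1), whose smallest p is 0.0159 for 4 against 5, 0.00794 for 5 against 5 and 0.0286 for 4 against 4 mice. Alternatives were edgeR 4.0.16, DESeq2 1.42.0, a pseudocount of 0.1, no filter, a mean of at least 1, the TPM scale, 1 fit of 4 groups, values relative to the adipocyte list, each mouse left out in turn and WT NCD mice 182 and 183 left out. The last on the TPM scale, and the adipocyte list without Cfd, were added after the data were seen. Both tissues came from the same mouse, so mouse was tried as a block across tissues. Residuals of a mouse's visWAT and liver correlated at -0.066 to 0.237 over genes, with 3 of 18 above 0.1.

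The members and gene lists were chosen with earlier results of these data known. Named were all 10 members, and from the pathway lists, per comparison and list, the 2 called genes with the largest rise and the 2 with the largest fall, or, where none was called, the 2 of all lists with the lowest p. Some genes that this rule names are not reported here. For Slc2a4 in visWAT and for Irs2 and Trib3 in liver the 3 genes with the highest within-group Pearson correlation were named, among genes that averaged 1 FPKM or more.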

Additional observations from a re-analysis of the deposited data

Results flagged for a closer look

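Of the 80 sets of 1 member in 1 group and tissue, 4 held a mouse far from the others by Dixon's gap ratio, where chance flags about 1 in 20. Akt2 of KO NCD mouse 197 was the lowest of its group in visWAT, at 41.9 FPKM (gap 0.881 of the range), and the highest of its group in liver, at 22.9 FPKM (gap 0.831). Pik3r1 of WT NCD mouse 182 in liver was the lowest, 7.74 FPKM (gap 0.895), and Irs1 of KO HFD mouse 157 in liver was the highest, 2.09 FPKM (gap 0.811).

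The response to HFD differed between visWAT and liver of WT mice for 7 members by the limma test of the difference itself. The difference on the log2 scale, visWAT minus liver, was -3.11 for Slc2a4, -1.76 for Pik3r1, -1.38 for Pde3b, -1.35 for Foxo1 and -1.01 for Insr. It was 1.86 for Trib3 and 0.81 for Grb14.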

How the results depend on the processing

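Of 2352 member values computed under an alternative, 2264 stayed on their side of the threshold, of which 128 changed sign where neither value was called. With the same sign, 45 gained and 36 lost the threshold, and 7 reversed in sign where the main or the alternative value was called. The number of members called with HFD in WT visWAT, 8, became 4 on the TPM scale and 4 relative to the adipocyte list, with or without Cfd, and that in KO visWAT, 7, became 3 relative to the list and 6 relative to the list without Cfd. In WT liver 4 became 7 on the TPM scale, and in KO liver 4 became 7 by edgeR, 7 by DESeq2 and 7 in 1 fit of 4 groups. The reversals were, relative to the adipocyte list in WT visWAT, Insr at 0.15, Irs1 at 0.31 and Akt2 at 0.60, with Cfd left out of the list Irs1 at 0.071 and Akt2 at 0.36, and on the TPM scale Akt2 there at 0.11 and Trib3 between visWAT and liver at 0.42. Of these, Akt2 at 0.60 and Trib3 at 0.42 were called in the new direction, and the others were not called under the alternative. The cause of the reversals was not tested. With 1 mouse left out, the members called numbered 6 to 9 in WT visWAT, 6 to 8 in KO visWAT, 4 to 5 in WT liver, 4 to 5 in KO liver, 0 to 0 in the genotype and genotype by diet comparisons, 9 to 9 between tissues and 7 to 8 for diet by tissue. Without mice 182 and 183 they numbered 10 in WT visWAT, 5 in WT liver and 7 for diet by tissue. With mouse as a replicate block across tissues, the pairing left 9 members called between tissues and 7 for diet by tissue, and changed no member's call.

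Over all genes, DESeq2 called 161 genes between genotypes in visWAT on HFD where limma called 3, 8 where it called 0 on NCD, 262 where it called 26 in liver on HFD (7 with no filter) and 21 where it called 1 on NCD. For genotype by diet it called 19 where limma called 0 in visWAT and 63 where limma called 2 in liver. None of these calls was a member. Slc2a4 had 4 to 28 reads in liver on NCD and was not tested between genotypes there.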
